A study of Homo sapiens with 6 samples.

Results

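Matrix metalloproteinases (MMPs) are zinc-dependent endopeptidases that cleave collagens, other matrix proteins and surface proteins. This account covers 10 of them, MMP1, MMP2, MMP3, MMP7, MMP9, MMP10, MMP11, MMP13, MMP14 and MMP15, in Capan-1 cells, a long-established line from a human pancreatic carcinoma. All probe sets annotated to exactly 1 of these genes were taken, which gave 19 probe sets out of 41091 with a single gene. The 10 genes stand against 19775 named genes on the array. Cells of both groups were grown in RPMI medium with 15% fetal calf serum. The 3 p16 samples came from cells that carried a full-length p16INK4a cDNA behind the CMV promoter in the vector pRC/CMV. The other 3 samples came from mock-transfected cells, and the labels do not say what the mock plasmid held. Transfected cells were selected with 1 mg/ml G418 plus 0.1 mg/ml hygromycin. The labels do not say whether a sample is a clone, a pool or a separate culture, so the p-values reflect no more than how these samples scatter, which may be technical. Samples carry the numbers V1 to V3 in each group.

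MMPs are made as inactive proenzymes, in which a cysteine of the propeptide holds the catalytic zinc, and are switched on by other proteinases such as plasmin or furin. Tissue inhibitors of metalloproteinases (TIMPs) block the active site. Collagenases (MMP1, MMP13) cut fibrillar collagen, gelatinases (MMP2, MMP9) cut denatured and basement membrane collagen, and stromelysins (MMP3, MMP10) have a broad range of substrates. MMP7, or matrilysin, is the family member typically made by ductal carcinoma cells themselves, while MMP2, MMP11 and MMP14 in pancreatic tumours are largely made by stromal fibroblasts.

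Values are log2 expression levels, and 1 unit is a doubling. A level under 4 in every sample of a group is called the floor here, because unexpressed probe sets pile up between about 2 and 4 after GCRMA. The samples were alike in their median level, 3.11 to 3.18, and 42.8% to 43.5% of probe sets reached 4 in each. The transfected gene itself, CDKN2A, stood at 6.01 ± 0.41 (SD, n = 3) without the cDNA and at 12.60 ± 0.45 with it on its brightest probe set (209644_x_at). On another (207039_at) it lay at the floor in mock samples, at 2.03 ± 0.01, and read 11.92 ± 0.04 in p16 samples. Its remaining probe set (211156_at) stayed under 4 in all 6 samples. MTAP and CDKN2B, neighbours of CDKN2A that the cDNA does not carry, lay at the floor in every mock sample (2.07 ± 0.01 and 2.35 ± 0.01). In p16 samples they read 11.05 ± 0.29 and 8.77 ± 0.26. An effect of the p16 cDNA and one of whatever else separates these samples cannot be told apart. Whether the cells of both groups are the same line, as the labels have it, was not tested, and every difference below is between the samples as labelled. Across the array 42.0% of 11658 tested genes were called (limma, Benjamini-Hochberg adjusted p under 0.05), 19.5% of them higher and 22.5% lower in p16 samples. Blocking on the V number brought 67.9% past the threshold. The V1 sample of each group stood apart from V2 and V3, so values without both V1 samples are given for the main members.

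Of the 10 metalloproteinases, MMP1 was higher in p16 samples and MMP7, MMP15 and MMP11 were lower. MMP9 and MMP14 differed by less than 0.1 with a standard error above the difference, and MMP2, MMP3, MMP10 and MMP13 lay at the floor in every sample. Of the 10, 6 genes had a probe set that reached 4 in at least 3 samples and were tested. MMP1, MMP7 and MMP15 passed that filter only through the group in which they were high, so they had to differ, and the 4 calls among 6 genes are not read against the 42.0% of the array. The same holds below for MMP24, TIMP4, TFPI2, PCSK5, ADAM19, ADAMTS6, ADAMTS12, ADAMTS15, CEACAM6 and LUM. FOS, FOSB, ETV4, ADAM8 and COL4A1 reached 4 in fewer than 3 samples of their low group. They too passed the filter through the group in which they were high. The counts of the lists that hold any of these genes are descriptions. In MMP1, MMP7, MMP11 and MMP15 the groups did not overlap, which was so for 56.4% of all tested genes. For MMP1, MMP7 and MMP15 this too was fixed by how they passed the filter, so it is not read against that share.

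**Figure D1:**
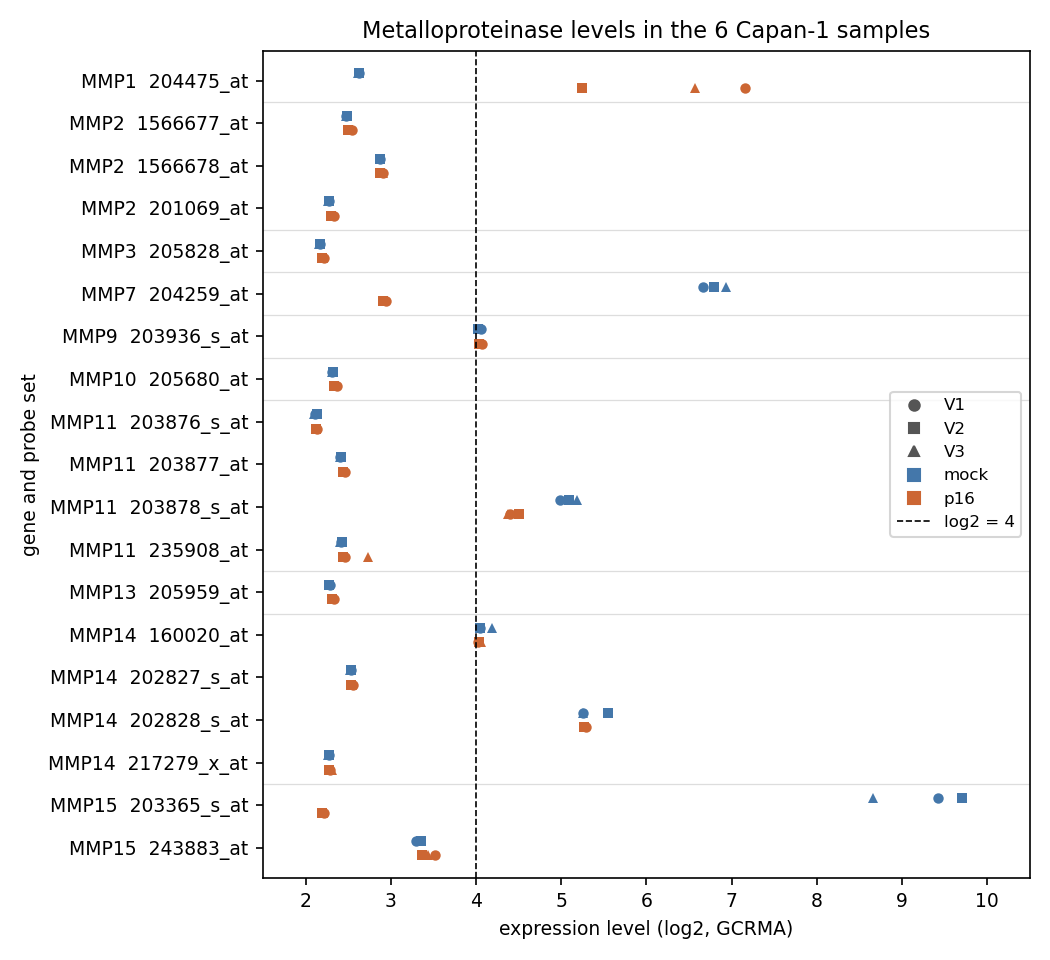
Expression level (log2, horizontal axis) of all 19 probe sets of the 10 metalloproteinases, 1 point for each of the 6 samples, mock in blue and p16 in orange, with marker shapes for V1 to V3. The dashed line marks 4: MMP1 crosses it only in p16 samples, MMP7 and MMP15 (203365_s_at) only in mock samples, and points that coincide hide one another.

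MMP1, the interstitial collagenase, which makes the first cut in fibrillar collagen, was the single member that rose. Its probe set (204475_at) read 2.63, 2.63 and 2.62 in mock V1, V2 and V3. In p16 samples it read 7.16, 5.24 and 6.57. All 3 p16 samples lay above all 3 mock samples, but they were spread over 1.92 units, a 3.79-fold range, with V2 the lowest. MMP1 was at least 5.02-fold higher in p16 samples, counted from a mock level of 4. The fitted difference was 3.70 (SE 0.49, adjusted p = 0.00256), and 3.28 (adjusted p = 0.00886) without both V1 samples. Since mock values were at the floor, the fitted difference depends on where GCRMA places that floor.

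MMP7 fell from a moderate level to the floor. It degrades several matrix proteins, sheds surface proteins, and lacks the hemopexin domain most other MMPs carry. Its probe set (204259_at) read 6.66, 6.80 and 6.94 in mock samples and 2.94, 2.91 and 2.92 in p16 samples. Both groups were tight, with SDs of 0.14 and 0.02, and did not overlap. MMP7 was at least 6.97-fold lower in p16 samples (fitted difference -3.88, SE 0.15, adjusted p = 2.67e-05). Without both V1 samples the difference was -3.96 (adjusted p = 0.000283).

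MMP15, a membrane-type metalloproteinase also named MT2-MMP, showed the widest gap of the 10. It is held at the cell surface by a transmembrane segment and is activated by furin-type convertases. Its brighter probe set (203365_s_at) read 9.42, 9.71 and 8.66 in mock samples and 2.22, 2.19 and 2.20 in p16 samples. The mock samples spread over 1.05 units, V3 being lowest, yet each stood more than 6 units above every p16 sample. MMP15 was at least 38.4-fold lower (fitted difference -7.06, SE 0.29, adjusted p = 3.17e-05), and the difference was -6.99 without both V1 samples (adjusted p = 0.000983). The second MMP15 probe set (243883_at) lay between 3.30 and 3.52 in all 6 samples, so it is at the floor and tells nothing of the fall.

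MMP11, or stromelysin-3, unlike most family members is activated inside the cell by furin. It was lower by a small amount on 1 of its 4 probe sets. That probe set (203878_s_at) read 4.99, 5.09 and 5.19 in mock samples and 4.40, 4.50 and 4.38 in p16 samples. The groups did not overlap, though all 6 values lay close to the floor. The difference was -0.66 (SE 0.15, adjusted p = 0.0176), a 1.58-fold lower level. The call was lost when mock V2, mock V3, p16 V2 or p16 V3 was left out (adjusted p from 0.0503 to 0.0721) and after quantile normalization (-0.44, adjusted p = 0.0723). The other 3 MMP11 probe sets stayed under 4 in every sample.

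MMP14, or MT1-MMP, the surface enzyme that activates pro-MMP2, gave no call on either tested probe set. The brighter one (202828_s_at) read 5.26, 5.55 and 5.26 in mock samples and 5.29, 5.27 and 5.27 in p16 samples, so the groups overlapped. The difference was -0.08 (SE 0.16, adjusted p = 0.752). The second (160020_at) read 4.05, 4.05 and 4.19 against 4.02, 4.04 and 4.06 (difference -0.06, SE 0.14, adjusted p = 0.789). MMP9, the gelatinase typical of neutrophils and macrophages, read 4.06, 4.03 and 4.03 in mock samples and 4.07, 4.04 and 4.05 in p16 samples (203936_s_at, difference 0.01, SE 0.14, adjusted p = 0.949). Such near-constant values just above 4 occurred elsewhere: of 4093 probe sets with a mean from 4 to 5.5, 330 (8.06%) spanned under 0.2 over the 6 samples. Passing the filter at these levels does not show that a gene was expressed.

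MMP2, or gelatinase A, MMP3 and MMP10, the stromelysins, and MMP13, or collagenase-3, were under 4 in all 6 samples on all 6 of their probe sets. Their values ran from 2.16 to 2.91. No fold is given for them. A level at the floor is a limit of this array's signal and does not show that no transcript was present.

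**Figure D2:**
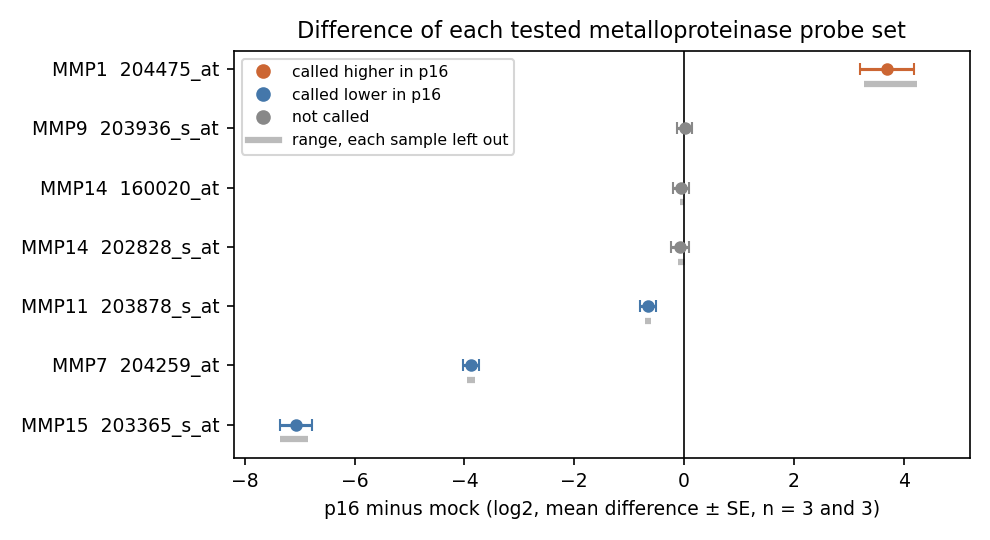
Difference between group means, p16 minus mock (log2, horizontal axis), for the 7 tested metalloproteinase probe sets, with the standard error as bars and, in grey, the range when each sample is left out in turn. MMP1 lies to the right at 3.70, MMP15 and MMP7 to the left at -7.06 and -3.88, and the bars of MMP9 and of both MMP14 probe sets cross 0.

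MMP1 and MMP7 belong to 1 cluster of genes on chromosome 11, which a human reference annotation (GRCh38.p14) orders as MMP7, MMP20, MMP27, MMP8, MMP10, MMP1, MMP3, MMP12 and MMP13. Of these 9 genes, 7 lay under 4 in all 6 samples. The remaining pair changed in opposite directions, MMP7 at one end of the row falling and MMP1 in its middle rising. MMP10 and MMP3, which flank MMP1, read 2.31 to 2.37 and 2.16 to 2.22. The nearest tested gene beyond MMP7 was TMEM123, at 13.49 ± 0.10 in mock and 13.82 ± 0.29 in p16 samples (adjusted p = 0.251). Beyond MMP13 lay DCUN1D5, a regulator of cullin neddylation, which rose from 11.36 ± 0.11 to 12.52 ± 0.03 (adjusted p = 0.00227) on 1 of its 2 tested probe sets. The cluster and its flanks were looked at after the members' values were seen.

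**Figure D3:**
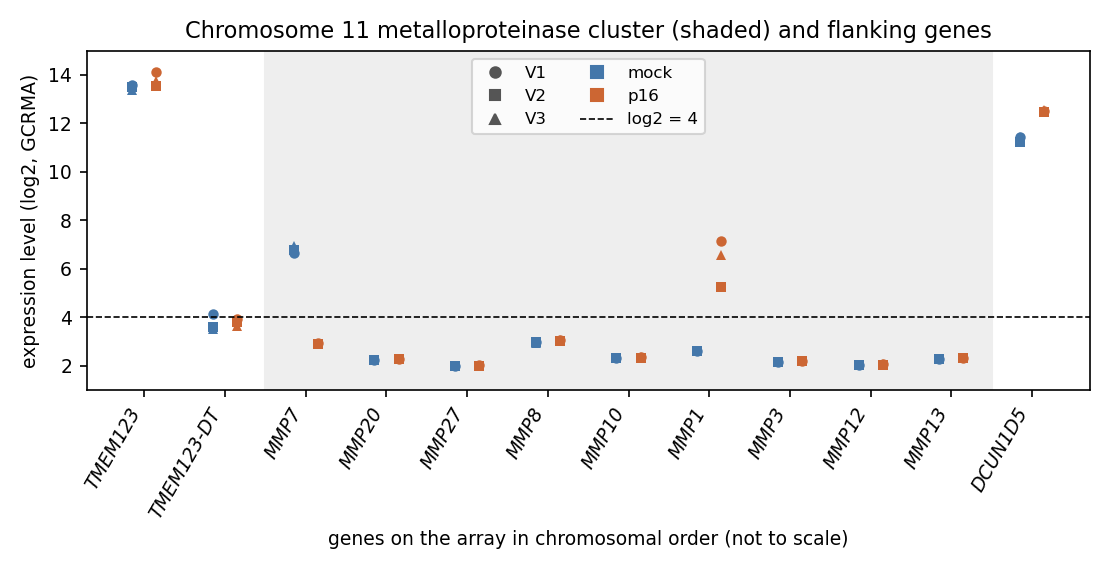
Expression level (log2, vertical axis) of the 9 metalloproteinase genes of the chromosome 11 cluster (shaded) and of flanking genes on the array, in chromosomal order and not to scale, with 1 point per sample (mock blue, p16 orange, shapes V1 to V3). Only MMP7 in mock samples and MMP1 in p16 samples rise above the dashed line at 4 within the cluster.

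Promoter sequence is shown for 3 members whose levels differ in kind: MMP7, which fell, MMP10, of the same cluster and at the floor, and MMP15, which fell most. RefSeq promoter windows (GRCh38.p14), from 250 bases before to 50 after the annotated start, were matched for 5 of the 10 members (MMP7, MMP10, MMP11, MMP14 and MMP15) and not for MMP1, MMP2, MMP3, MMP9 and MMP13. MMP7 lies at chr11:102530698-102530997 (minus strand), MMP10 at chr11:102780579-102780878 (minus strand) and MMP15 at chr16:58025504-58025803 (plus strand). Each is written 5′ to 3′ in the direction of its gene. Capitals mark matches, on either strand, to TGANTCA (an AP-1-type pattern, with any base at N), AGGAAG (a PEA3-type ETS site) and TATAAA (the TATA box).
MMP7: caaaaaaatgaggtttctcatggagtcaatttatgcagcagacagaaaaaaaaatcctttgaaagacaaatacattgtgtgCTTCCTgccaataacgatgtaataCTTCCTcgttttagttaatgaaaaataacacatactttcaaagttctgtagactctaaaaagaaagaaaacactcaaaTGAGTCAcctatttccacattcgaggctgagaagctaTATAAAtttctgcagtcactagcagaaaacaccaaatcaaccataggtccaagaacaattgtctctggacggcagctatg
MMP10: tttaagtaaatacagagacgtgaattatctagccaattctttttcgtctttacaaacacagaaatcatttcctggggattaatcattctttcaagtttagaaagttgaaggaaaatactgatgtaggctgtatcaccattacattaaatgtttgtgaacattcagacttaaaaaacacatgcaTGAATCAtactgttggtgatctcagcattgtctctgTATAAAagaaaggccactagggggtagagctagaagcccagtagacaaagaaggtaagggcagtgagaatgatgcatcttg
MMP15: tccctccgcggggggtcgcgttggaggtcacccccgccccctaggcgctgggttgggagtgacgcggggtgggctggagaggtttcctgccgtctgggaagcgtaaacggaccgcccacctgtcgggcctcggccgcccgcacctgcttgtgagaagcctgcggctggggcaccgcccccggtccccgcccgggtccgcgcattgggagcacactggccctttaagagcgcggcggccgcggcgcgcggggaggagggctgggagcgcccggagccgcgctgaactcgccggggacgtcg

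MMP7 and MMP10 each held 1 match to the AP-1-type pattern that begins 67 bases before the start. The base at N differed, TGAGTCA in MMP7 and TGAATCA in MMP10. A TATA match lay 30 and 31 bases before the start. MMP7 held 2 ETS matches as well, read on the opposite strand, 169 and 145 bases before the start. MMP15, MMP11 and MMP14 held none of the 3 motifs. MMP15 and MMP11 windows were rich in G and C, 75.3% and 74.3%, against 35.7% in MMP7 and 36.3% in MMP10. Of 35116 windows of the same length, 7.71% held the AP-1-type pattern with any base at N, 33.6% the ETS motif and 11.5% the TATA motif. A match describes letters in this window and is not a shown site of binding.

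Factors that bind such motifs were looked at next. FOS, an AP-1 subunit, was at least 302-fold lower, with p16 values under 4 raised to 4: it read 12.39, 13.49 and 12.90 in mock and 2.61, 5.43 and 4.64 in p16 samples (adjusted p = 0.000498). FOSB was at least 98.2-fold lower (adjusted p = 0.00185), and the epithelial ETS factor EHF was 13.0-fold lower (adjusted p = 0.000175). ELF3, another epithelial ETS factor, fell from 11.58 ± 0.70 to 5.19 ± 0.01, a near-constant p16 level not shown to lie above background, so no fold is given. In the list of 15 AP-1 and ETS factors, all tested, 2 rose, 7 fell (9 under the block) and 6 were not called. Of all 11658 tested genes 19.5% rose and 22.5% fell (4136 genes fell under the block). The median difference of the list was -1.03 beside -0.03 over all tested genes. FOS, FOSB and ETV4, which are among the falls, reached 4 in fewer than 3 p16 samples and passed the filter through mock samples. The count and the median are therefore descriptions and are not read against the array. The rise of ETS1 lost its call without any 1 of the samples except mock V1, and with no filter. The rise of ELK1 lost its call without p16 V2, without p16 V3, as a mean over its probe sets and on its probe set with the largest spread. JUN, the usual partner of FOS, differed by -0.07 (SE 0.18, adjusted p = 0.803).

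Other family members followed no single direction. MMP24, or MT5-MMP, fell from 6.33, 6.05 and 5.38 to 2.95, 2.94 and 2.94, at least 3.79-fold lower (adjusted p = 0.000589). MMP19 rose 2.44-fold, from 6.66 ± 0.32 to 7.95 ± 0.31, a difference of 1.29 (SE 0.25, adjusted p = 0.0112), on 1 of its 2 probe sets. MMP28, or epilysin, differed by -0.03 on its brightest probe set (adjusted p = 0.947). On another (239272_at) it was lower, 4.98, 6.16 and 7.02 in mock against 3.08, 3.05 and 3.07 in p16 samples (adjusted p = 0.00651). That probe set passed the filter only through mock samples and had to differ. The values of these MMP28 probe sets disagree. Of 13 further MMP genes listed, 12 were on the array with a probe set of their own, 3 were tested, and the other 9 lay at the floor on their brightest probe set.

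Inhibitors of metalloproteinases showed large changes in 2 genes, TIMP4 down and TFPI2 up. TIMP4 read 7.37, 7.21 and 7.41 in mock and 2.38, 2.29 and 2.29 in p16 samples, at least 10.04-fold lower (adjusted p = 1.14e-05). TFPI2, a matrix-bound Kunitz-type inhibitor of plasmin that also restrains MMP activation, read 2.70, 2.71 and 2.67 in mock and 10.92, 10.86 and 11.19 in p16 samples, at least 127-fold higher (adjusted p = 4.55e-06). TIMP1 read 9.68, 12.60 and 12.35 in mock and 11.25, 13.39 and 13.30 in p16 samples, with V1 the lowest in both groups. Its difference of 1.11 was not called (adjusted p = 0.433, and 0.00790 with the replicate block). TIMP2 differed by 0.19 on its brightest probe set (adjusted p = 0.575) and by 2.34 on another (203167_at, adjusted p = 0.000372). RECK, a membrane-anchored MMP inhibitor, differed by 0.52 on its brightest probe set (adjusted p = 0.102, and 0.0154 with the block), and 2 of its 4 tested probe sets rose. TIMP3 lay at the floor in all samples. Of 10 inhibitors, 5 were tested, 1 rose, 1 fell and 3 were not called, with a median change of 0.52; both calls are of the kind that had to differ. With the block 3 rose and 1 fell, where 3780 of all 11658 tested genes rose and 4136 fell.

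Among activators and inducers the largest differences were falls. The convertase PCSK5 fell from 9.87 ± 0.24 to the floor, at least 58.5-fold lower (adjusted p = 6.58e-06). PLAT, the tissue plasminogen activator, fell 35.4-fold, from 15.02, 15.10 and 14.97 to 9.98, 9.91 and 9.76 (adjusted p = 1.10e-05). PLAUR, the urokinase receptor, fell 1.86-fold on its brightest probe set (adjusted p = 0.0128) and on 1 other, while its remaining probe set (214866_at) differed by 0.07 (adjusted p = 0.766). The call on the brightest one ended without p16 V2 or p16 V3 (highest adjusted p = 0.0528). PLAU, urokinase, differed by -0.06 (SE 0.57, adjusted p = 0.946) and FURIN by 0.02 (SE 0.28, adjusted p = 0.970). BSG, which encodes the MMP inducer EMMPRIN, differed by -0.46 (adjusted p = 0.678, and 0.0278 with the block). Of 9 such genes 7 were tested, and 3 fell (5 under the block), with a median difference of -0.67. Of all 11658 tested genes 22.5% fell (4136 genes under the block). PCSK5 is among the falls and had to differ, so the count is a description and is not read against that share.

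**Figure D4:**
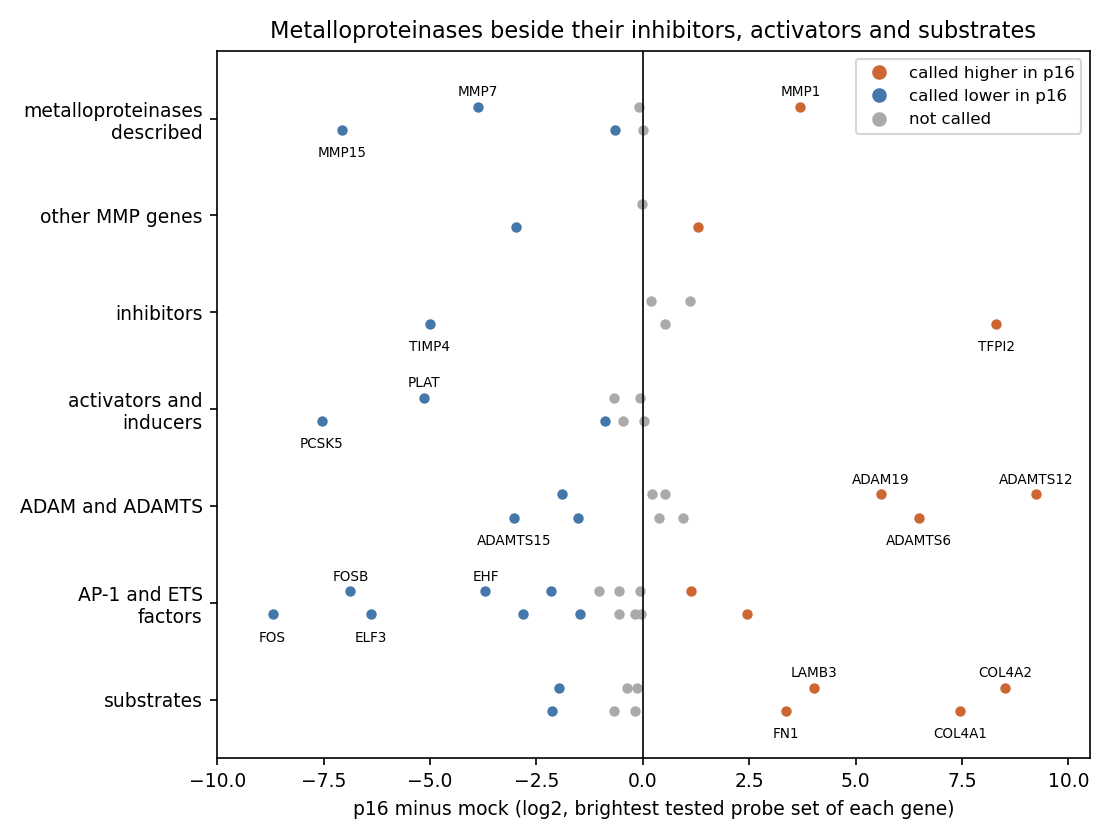
Difference p16 minus mock (log2, horizontal axis) of each tested gene on its brightest probe set, in rows for the metalloproteinases described, other MMP genes, inhibitors, activators and inducers, ADAM and ADAMTS proteinases, AP-1 and ETS factors, and substrates. Called genes are orange (higher) or blue (lower), those called beyond 3 units are named, and grey points were not called; each row except activators holds called genes on both sides of 0.

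Related proteinases and substrates changed in both directions. Among ADAM and ADAMTS proteinases, 3 of 10 tested rose, 3 fell and 4 were not called, with a median of 0.46. The fall of ADAM8 lost its call whenever a sample other than p16 V1 was left out, with no filter and after quantile normalization. ADAMTS12, ADAMTS6 and ADAM19 were at least 363-fold, at least 38.1-fold and at least 32.2-fold higher, and ADAMTS15 at least 4.75-fold lower. Of 18 matrix and surface substrates on the array, 10 were tested, and 4 rose, 2 fell (3 under the block) and 4 were not called, with a median of -0.16. Of all 11658 tested genes 19.5% rose and 22.5% fell (4136 genes fell under the block). Both counts are descriptions and are not read against those shares. The ADAM and ADAMTS list holds genes that had to differ. Among the substrates, COL4A1 read 4.73, 3.07 and 4.92 in mock samples and passed the filter through p16 samples. COL4A2 and COL4A1, collagen chains of basement membranes, rose from 4.28 ± 0.24 and 4.24 ± 1.02 to 12.80 ± 0.65 and 11.70 ± 0.25, with mock levels so near 4 that no fold is given. LAMB3 and fibronectin, FN1, were 16.3-fold and 10.3-fold higher. COL1A1, a chain of the fibrillar collagen that MMP1 cleaves, differed by -0.13 on its brightest probe set (adjusted p = 0.748), but 2 of its 3 tested probe sets rose.

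Cell type markers were set beside these results. Of 9 duct and epithelial markers on the array, all 9 were at or above 4 in every mock sample and 8 in every p16 sample, so the labelled epithelial type had its markers in both groups. Their mean level was 13.27 to 13.53 in mock and 10.03 to 10.43 in p16 samples. Of the 9, 7 fell (8 under the block), among them CEACAM6 (at least 73.7-fold), SOX9 (53.8-fold), MUC1 (35.1-fold) and KRT19 (14.6-fold). Of all 11658 tested genes 22.5% fell (4136 genes under the block). CEACAM6 passed the filter only through mock samples and had to differ, so the count is a description. The fall of KRT18 lost its call whenever a sample other than p16 V1 was left out and with no filter, and KRT7 differed by -0.10 (adjusted p = 0.728). The falls of MMP7 and MMP15 came in the same samples as lower epithelial markers. Fibroblast markers had a mean level of 3.33 to 3.40 in mock and 4.14 to 4.35 in p16 samples. Of 10, 6 lay under 4 in all samples (COL1A2, COL3A1, DCN, PDGFRA, FAP and POSTN), while LUM rose from the floor to 8.92 ± 0.42. PDGFRB, which was not tested, read 2.71, 2.19 and 2.53 in mock and 4.31, 5.65 and 3.71 in p16 samples. COL1A1 and THY1 were not called on their brightest probe sets. Leukocyte markers (6 of 6) and endothelial markers (6 of 6) stayed at the floor throughout, with means of 2.38 to 2.44 and 2.87 to 2.99. The part of these markers in the metalloproteinase results was not tested, and in such bulk samples fewer cells of a type and less RNA per cell cannot be told apart.

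Genes whose profile over the 6 samples, each centred on its own mean, lay nearest to a member were named as a description only, since many genes share a step between the groups. Nearest to MMP15 were TMEM176B, EMP2 and AOC1, the histamine-degrading diamine oxidase, at Euclidean distances of 0.52, 0.72 and 0.81 log2 units. Nearest to MMP7 were TTC39A, DIP2C-AS1 and CA2, carbonic anhydrase II, at 0.21, 0.23 and 0.24. Nearest to MMP1 were ZNF736, CYYR1 and the homeobox gene MKX, at 0.39, 0.51 and 0.52. All of the first 6 lay at the floor in p16 samples and the last 3 at the floor in mock samples.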

How the data were processed

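RNA of 6 Capan-1 samples was measured on Affymetrix HG-U133 Plus 2.0 arrays, 1 a sample, from 300.0 ng of total RNA per the labels' protocols. Deposited values are on a log2 scale; the submitters' processing notes name GCRMA as the authors' normalization, without a version. GCRMA sets unexpressed probe sets near a floor, so folds against it are given as bounds, with values under 4 raised to 4. After 62 control probe sets, 54613 remained, of which 41091 had 1 gene in GEO's platform annotation, 1801 several (used for no gene) and 11721 none. Probe sets at log2 4 or more in at least 3 of the 6 samples were tested across all genes with limma 3.58.1 in R 4.3.3 (lmFit, eBayes, no block, two-sided) with Benjamini-Hochberg adjustment and a threshold of 0.05, after a check of the test on simulated data. The tested probe set brightest on average stands for its gene. Tables and figures used Python 3.11.15, pandas 2.3.3 and matplotlib 3.10.9.

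The members, the gene lists and the alternatives were chosen with earlier results of these data known. The rule for named genes takes all 10 members, CDKN2A, MTAP, CDKN2B, GAPDH and ACTB, TIMP1 to TIMP3, RECK, PLAU, PLAUR and BSG, per list up to 4 called genes with the largest change, and the 3 nearest profiles of the 3 members with the largest called change. MMP28, FURIN, ETS1, ELK1, ETV4, ADAM8, KRT18, JUN, COL1A1, KRT7, PDGFRB, THY1, TMEM123, DCUN1D5 and the floor markers were named after their values were seen. GAPDH and ACTB differed by 0.14 and 0.15 (limma adjusted p = 0.605 and 0.477). Deviations from the group mean correlated between samples of equal V number (0.81, 0.75 and 0.67 across probe sets). The numbers thus meet the bar for pairs, and a block on them was run as an alternative while the tests reported carry none; what the numbers stand for is not in the labels and V2 and V3 of different groups also correlated (0.51 and 0.42). The number of arrays limits the precision.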

Additional observations from a re-analysis of the deposited data

How the results depend on the processing

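The calls of MMP1, MMP7 and MMP15 kept their direction and stayed past the threshold under every alternative in which they were tested; MMP1 was not tested under the stricter filter (log2 6 in 3 samples), which left 0 members called higher. MMP11 lost its call in 5 settings, given with its values above. Over the 6 tested members and 17 alternatives, 93 of 98 values kept their call, or its absence. MMP1, MMP7 and MMP15 are part of that tally. They passed the filter only through the group in which they were high and had to differ. Their kept calls are therefore a description. With values under 4 raised to 4, the differences of MMP1, MMP7 and MMP15 were 2.33, -2.80 and -5.26. Pairing by V number (replicate block) raised the calls to 3780 higher and 4136 lower, from 2270 and 2625; among genes named here the block changed only the calls of TIMP1, RECK and BSG. Leaving out each sample in turn gave 1576 to 2370 genes higher, 1908 to 2579 lower, 1 member higher and 2 to 3 lower. COL1A1 turned to a called rise of 1.01 as the mean over its probe sets and 1.84 on the probe set with the largest spread; MMP28, RECK and TIMP2 also gained calls under those rules. For the 4 members at the floor the signal limits any statement; without the filter their limma adjusted p ran from 0.137 to 0.239.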

Other observations

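The 12 metalloproteinase probe sets that were not tested had a higher mean in p16 than in mock samples in 12 of 12 cases, by 0.01 to 0.12 log2 units. The same held for 90.9% of the 28103 probe sets that lay under 4 in all 6 samples, with a median difference of 0.04. The size of the step in the metalloproteinases was that seen at the floor of these arrays as a whole.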
